A study of Musca domestica with 10 samples.

Results

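House fly (Musca domestica) embryos at cellular blastoderm were compared with embryos at syncytial blastoderm. Each stage was represented by 2 libraries of RNA from 100 pooled whole embryos, so 4 of the 10 libraries of the series entered the comparison, chosen by their labelled stage. Libraries with the same replicate number were paired (1 with 1, 2 with 2) for differences within pairs and in fits with a replicate block. The main test did not use the pairing. At syncytial blastoderm the nuclei share 1 cytoplasm, and at cellular blastoderm membranes enclose them. The other 6 libraries, from gastrula, germ band extension and dorsal closure, shared in the estimate of the spread and show the later course of each group of genes. All libraries carry the same labels except for stage and replicate number. The sources used here do not give the strain or the hours of development, and because embryos were pooled the spread among single embryos was not measured.

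In insects the egg is stocked by the mother with messenger RNA that runs the first nuclear divisions, and the embryo's own genome is switched on while many of these stores are destroyed. This handover, the maternal-to-zygotic transition, is best known from Drosophila, in which the pioneer factor Zelda opens early zygotic genes, the RNA-binding protein Smaug marks maternal transcripts for decay, and membrane formation at the blastoderm needs zygotic products. The counts below follow that handover in the house fly as a change in relative transcript level. In RNA from whole embryos, fewer cells of a type and less RNA per cell cannot be told apart, and neither can new transcription and loss of other transcripts.

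Reads assigned to genes numbered 83604709 and 45759994 in cellular blastoderm replicates 1 and 2, against 16288442 and 42479342 in syncytial blastoderm replicates 1 and 2. Levels are CPM (a gene's reads relative to the TMM-scaled library size) and are not divided by gene length, so a level describes a gene against itself in another library and not against another gene. A count of 3 reads corresponded to 0.0361 and 0.0687 CPM in the cellular blastoderm libraries, against 0.135 and 0.0608 CPM in the syncytial ones. The shallow library, syncytial blastoderm replicate 1, therefore sets how well a low starting level is known. The files list 15803 genes by identifier without names, and 0 of these identifiers matched the reference gene table, so gene groups are described by their starting level and course, and only 2 genes in each direction are given by identifier.

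Slightly more genes were detected at cellular blastoderm. With each library brought by calculation to the same 16288442 gene reads, 9590 and 9692 genes had at least 1 read at cellular blastoderm and 9249 and 9372 at syncytial blastoderm. The stages also differed in how the reads were spread over genes. At cellular blastoderm 50% of the gene reads came from the 299 and 254 most read genes, against 614 and 493 genes at syncytial blastoderm. Genes at or above 1000 CPM, counted with TMM scaling alone, numbered 159 and 145 at cellular blastoderm and 91 and 100 at syncytial blastoderm. The stages did not overlap in these 3 measures. They did in the share of the 10 most read genes, which was 7.54% and 9.65% at cellular blastoderm and 8.51% and 7.49% at syncytial blastoderm.

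Of 11286 genes tested, 259 (2.29%) were higher and 51 (0.452%) lower at cellular than at syncytial blastoderm. These calls came from edgeR's quasi-likelihood test without the replicate pairing (adjusted p under 0.05, Benjamini-Hochberg). A block for the replicate number brought the calls to 494 (4.38%) higher and 410 (3.63%) lower, which included all 259 and all 51. Rises made up 83.5% of the calls in the unblocked fit and 54.6% in the blocked fit. The split also moved with the scaling and the tool, to 69.3% with total counts alone (226 higher and 100 lower), 69% in limma-voom (234 and 105) and 55.9% in DESeq2 (567 and 447). With the block and total counts it was 36.4%, so which direction had more calls was not fixed by these data. Single libraries weighed heavily. Dropping cellular blastoderm replicate 1 left 165 rises and 0 falls, and dropping cellular blastoderm replicate 2 left 201 and 2. Dropping syncytial blastoderm replicate 1 left 89 rises and 1 fall, and dropping syncytial blastoderm replicate 2 left 75 and 0. With 1 of the 4 compared libraries dropped, its stage kept 1 library and 12053 to 12118 genes were tested in place of 11286. The moves therefore do not reflect the dropped library alone. A count of 0 falls in such a fit does not show that no gene was lower. Removing gastrula replicate 1 or 2 left 14 or 15 falls, and removing germ band extension replicate 1 or 2 gave 83 or 82.

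Rises were much larger than falls among the called genes, but the 2 directions began at different levels. Of the 259 rises, 226 started below 1 CPM, while all 51 falls started at or above 10 CPM. From that higher start, genes called with the replicate block had a median log2 fold change of 1.35 for rises and -2.24 for falls. All 310 genes called without the block changed at least 4-fold, and the libraries of the 2 stages did not overlap for any of them. Of all tested genes, 22.9% had no overlap on the higher side and 18.6% on the lower side. The calls were made from these same libraries, so their lack of overlap is no separate support. Of the 259 rises, 249 were at least 16-fold and 121 at least 256-fold. Of the 51 falls, 22 were at least 8-fold, 7 at least 16-fold and 1 at least 64-fold. The fitted size of a rise from few reads depends on the prior count. With starting levels below 3 reads in a library set to 3 reads, the median rise on the log2 scale was 6.54 as a lower bound, against a fitted median of 7.78. The median fitted fall was -2.9. This floor cannot alter a fall, since all 51 started at or above 10 CPM, and levels at cellular blastoderm were not floored. Over all tested genes the median fitted log2 fold change was 0.10.

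Large differences seen in 1 replicate pair were shared by the other in part, and seldom had the opposite sign there. In replicate pair 1, 1033 genes were 4-fold or more higher at cellular blastoderm and 822 were 4-fold or more lower, and in replicate pair 2 the numbers were 897 and 600. In both pairs 554 genes (4.91%) were higher by this much and 305 (2.7%) lower. At this size 23 genes were higher in pair 1 and lower in pair 2, and 14 the opposite. At 2-fold such opposite differences numbered 177 and 172, against 950 genes higher and 1112 lower in both pairs. The median absolute log2 difference between the stages was 0.80 in pair 1 and 0.62 in pair 2. Between replicates of a stage it was 0.72 at cellular and 0.58 at syncytial blastoderm, which compares libraries of unlike replicate number. Stage differences across numbers were 0.86 (cellular replicate 1, syncytial replicate 2) and 0.90 (cellular replicate 2, syncytial replicate 1). For the typical gene the step was thus somewhat larger than the spread between replicates on a like comparison. These medians include 731 tested genes with no read in the 4 libraries.

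**Figure D1:**
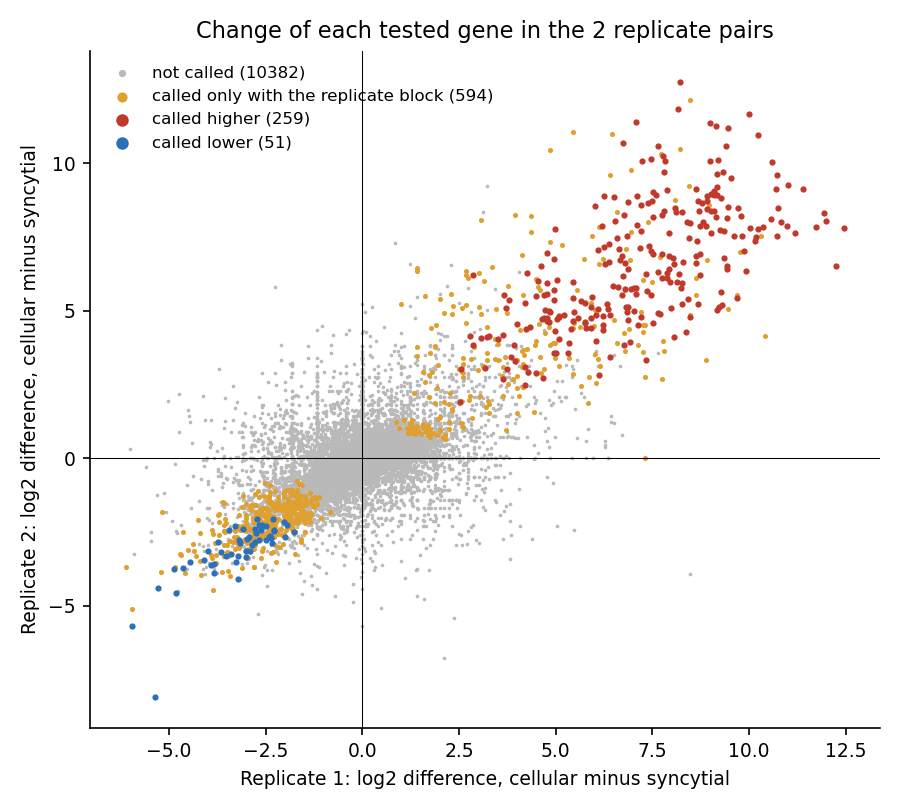
Each point is 1 of the 11286 tested genes, with its log2 difference in CPM (prior count of 2), cellular minus syncytial blastoderm, in replicate pair 1 on the x axis and in replicate pair 2 on the y axis. The 259 genes called higher extend far into the upper right, while the 51 called lower sit closer to the centre in the lower left among the genes called only with the replicate block.

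The direction of the calls differed by starting level. The classes were cut on the same syncytial blastoderm libraries that enter the contrast, so start and direction are not independent. Genes fell into 8465 near-silent ones (below 1 CPM in both syncytial blastoderm libraries), 5868 already present (at or above 10 CPM in both) and 1470 between these levels. Tested were 3949 near-silent, 5868 already present and 1469 in-between genes. The filter used all 10 libraries, so a near-silent gene could enter through its level at later stages, and the split depends in part on the filter. Of the 259 rises, 226 started near-silent (5.72% of those tested), 29 in between (1.97%) and 4 as already present (0.0682%). All 51 falls started as already present. In the near-silent and in-between classes edgeR called 0 genes lower. At an unadjusted edgeR p under 0.05 there were 43 and 39, of 3949 and 1469 tested, counts that can arise with no real fall. DESeq2 called 6 and 26 lower there, and 452 and 53 higher. Among already present genes DESeq2 called 62 higher and 415 lower. A near-silent gene has little room for a measured fall, so the absence of edgeR falls in that class carries little information on loss. With the replicate block, already present genes gave 63 rises and 402 falls, in-between genes 54 and 7, and near-silent genes 377 and 1.

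**Figure D2:**
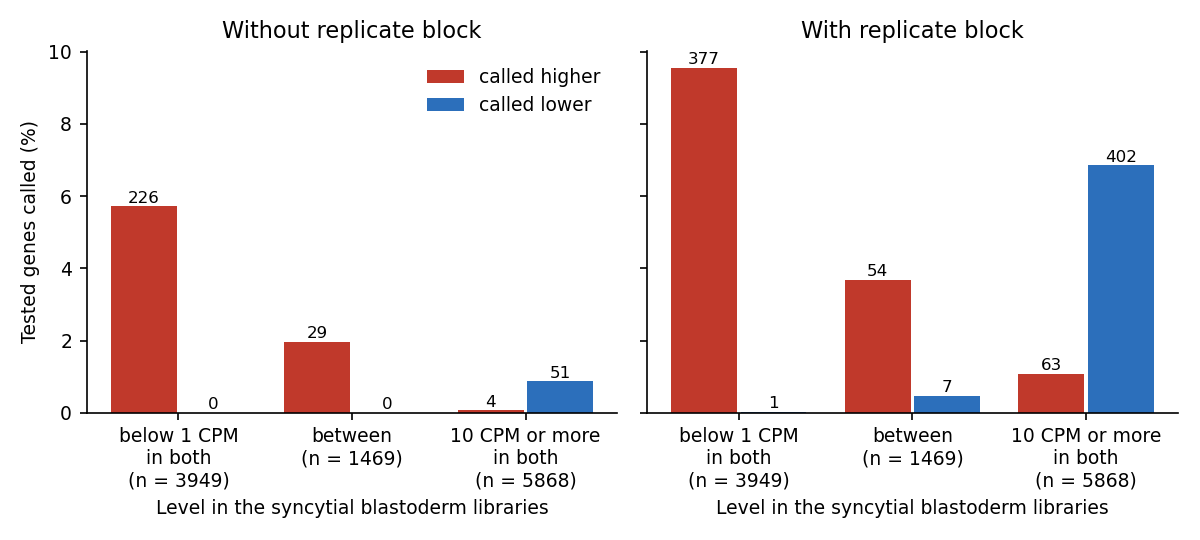
Bars give the percentage of tested genes called higher (left bar of each pair) and lower (right bar) at cellular against syncytial blastoderm, by level in the syncytial blastoderm libraries, without (left panel) and with (right panel) the replicate block. Numbers over the bars are genes, and rises lie mainly in the class below 1 CPM and falls in the class at 10 CPM or more.

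Few near-silent genes reached an appreciable level by this step. At cellular blastoderm, 316 of the 8465 (3.73%) reached 1 CPM in both libraries, 158 reached 5 CPM, 119 reached 10 CPM and 11 reached 100 CPM, while 7889 (93.2%) stood below 1 CPM in both. No read at all was found in either syncytial blastoderm library for 5278 of the near-silent genes, and of these 24 reached 1 CPM and 2 reached 10 CPM in both cellular blastoderm libraries. Most of the genes that reached 1 CPM thus already had a read in the earlier embryos.

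The 119 genes that crossed from below 1 to at or above 10 CPM carried the clearest onset. Together they held 1.12% and 0.628% of the gene reads at cellular blastoderm, against 0.00402% and 0.00235% at syncytial blastoderm. Their levels at cellular blastoderm ran from 10.9 to 1027 CPM in replicate 1 and from 10.2 to 481 CPM in replicate 2. Reads were concentrated in a few of them, and the 10 most read took 42% and 38.1% of the group's reads. With starting levels under 3 reads in a library set to 3 reads, the rise on the log2 scale was at least 4.38 for every gene and 8.05 at the median. The levels that define the group already require a large rise and a larger share of the reads. Of the 119, 108 were called higher without the replicate block and 119 with it, where the choice of these genes by level already fixes the direction. Cellular blastoderm replicate 1 stood above replicate 2 for 84 of the 119 genes, by 2-fold or more for 43, while replicate 2 was 2-fold or more above replicate 1 for 7. The number crossing was 137 and 176 when cellular blastoderm replicate 1 or 2 was left out, and 137 and 126 when syncytial blastoderm replicate 1 or 2 was. Requiring 20 CPM in place of 10 left 77 genes, and requiring 5 CPM gave 158.

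Another 118 near-silent genes were called higher without reaching 10 CPM in both libraries. Their median level was 4.26 and 3.14 CPM in the cellular blastoderm libraries, against 0 and 0.0405 CPM in the syncytial ones. In the gastrula libraries it was 31.2 and 24.1 CPM, and 92 of the 118 were then at or above 10 CPM in both. These genes thus stood at a low level at cellular blastoderm and most of them higher at gastrula. The 29 called genes with an in-between start had medians of 187.5 and 133 CPM at cellular blastoderm, against starting medians of 1.67 and 1.11 CPM.

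Most called rises stood as high or higher at gastrula, a comparison that shares the cellular blastoderm libraries with the calls. The matching count over all tested genes was not made, and genes could pass the filter through their later levels. A higher level at gastrula is thus not shown to be particular to the called rises. Among the 259 called rises, the gastrula level was above the cellular blastoderm level in both replicate series for 188 genes and below it in both for 30, and 222 stood at or above 10 CPM in both gastrula libraries. The highest mean of the 5 stages fell at cellular blastoderm for 45, at gastrula for 74, at germ band extension for 81 and at dorsal closure for 59. By dorsal closure 162 of the 259 stood at or above 10 CPM in both libraries and 22 stood below 1 CPM in both. Among the 119 crossing genes, cellular blastoderm was the highest stage for 34, and 12 had dropped 4-fold or more by gastrula in both series.

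**Figure D3:**
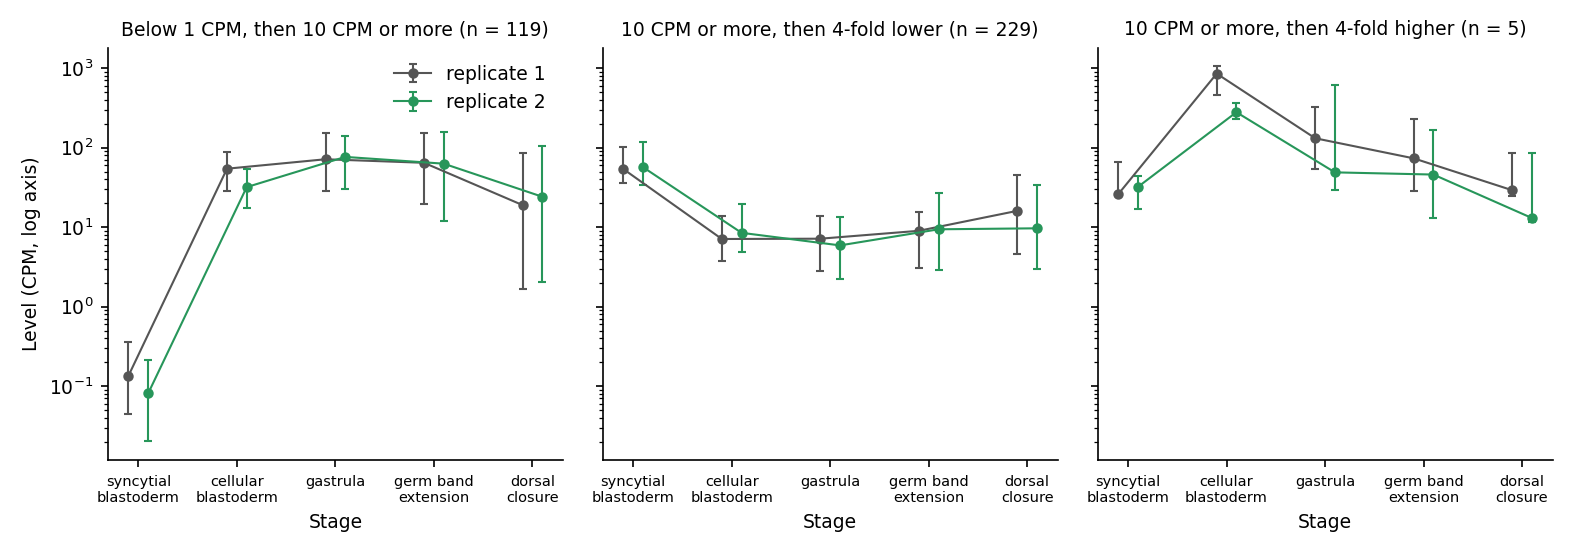
Points are medians over the genes of a group in 1 library and bars span the lower to upper quartile of those genes, in CPM on a log axis over the 5 stages, with replicates 1 and 2 side by side. The 119 genes that crossed from below 1 to 10 CPM stayed high to germ band extension, the 229 that were 4-fold lower in both pairs stayed low, and the 5 that were 4-fold higher from 10 CPM or more were highest at cellular blastoderm in their medians.

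The highest early onset among genes called higher from below 1 CPM was MDOA010623. It stood at 1027 and 481 CPM at cellular blastoderm, against 0.585 and 0.831 CPM at syncytial blastoderm, where it had 13 and 41 reads. The stages were far from overlapping in either pair. Its log2 fold change was 10.04 ± 1.47 (SE, edgeR adjusted p = 0.0092, and 0.0025 with the replicate block). Without syncytial blastoderm replicate 1 or 2 its adjusted p was 0.11 or 0.12. The gene stood at 2108 and 2026 CPM at gastrula, at 2031 and 522 CPM at germ band extension, and at only 0.487 and 5.62 CPM at dorsal closure.

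Large increases of transcripts that were already present were rare. Of the 5868 present genes, 51 (0.869%) were 2-fold or more higher in both pairs and 5 (0.0852%) were 4-fold or more higher, of which 3 were called without the replicate block and 5 with it. The number at 4-fold was 38 and 39 without replicate 2 of cellular and of syncytial blastoderm, where pair 1 alone sets the fold, and 8 and 11 without replicate 1 of each. Among present genes called higher, the highest at cellular blastoderm was MDOA011536. Its level was 852 and 363 CPM in the cellular blastoderm libraries, against 25.9 and 13.8 CPM in the syncytial ones. Both pairs moved by nearly the same factor, with log2 differences of 5.04 and 4.72. Its log2 fold change was 4.94 ± 0.87 (SE, edgeR adjusted p = 0.021, and 0.00019 with the replicate block). The adjusted p was 0.076 when cellular blastoderm replicate 1 was left out, and 0.13 and 0.22 when syncytial blastoderm replicate 1 or 2 was. It stood at 40.4 and 29.6 CPM at gastrula and at 24.7 and 13 CPM at dorsal closure.

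Among present genes, differences of 2-fold or more in both pairs were more often toward lower than higher levels, while the median fitted log2 fold change of the class was 0.06. In both pairs 3379 of the 5868 (57.6%) stayed within 2-fold. Lower in both pairs by 2-fold or more were 816 (13.9%), by 4-fold or more 229 (3.9%), by 8-fold or more 44 (0.75%) and by 16-fold or more 5. For 1 of the 5868 the level was below 1 CPM in both cellular blastoderm libraries, so a reduced transcript nearly always kept 1 CPM or more in at least 1 of them. Of the 229 lower by 4-fold or more, 84 and 102 stood at or above 10 CPM in cellular blastoderm replicates 1 and 2. The number at 4-fold was 377 with total counts alone, and 507 and 566 without replicate 2 of cellular and of syncytial blastoderm, where pair 1 alone sets the fold.

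The 229 genes that were 4-fold or more lower had median levels of 7.08 and 8.47 CPM in the cellular blastoderm libraries, against 53.7 and 56.7 CPM in the syncytial ones. Their share of the gene reads was 0.323% and 0.557% at cellular blastoderm and 3.14% and 3.88% at syncytial blastoderm. Of the 229, 49 were called lower without the replicate block and 192 with it, again with the direction fixed by the choice. Cellular blastoderm replicate 2 was 2-fold or more above replicate 1 for 63 of them and the opposite held for 16, so replicate 1 showed both the lower remaining levels here and the higher onsets above. The medians stood at 7.15 and 5.89 CPM in the gastrula libraries, 8.98 and 9.38 CPM in those of germ band extension and 16 and 9.66 CPM in those of dorsal closure, and 41 of the 229 had their highest mean of the 5 stages at dorsal closure. Syncytial blastoderm was the highest stage for 187.

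Of the genes called lower, MDOA014409 had the highest CPM at syncytial blastoderm. Its level was 49.9 and 106 CPM in the cellular blastoderm libraries, against 666 and 770 CPM in the syncytial ones. Its log2 fold change was -3.2 ± 0.63 (SE, edgeR adjusted p = 0.034, and 0.0046 with the replicate block). Leaving out single libraries ended this call: the adjusted p was 0.26 and 0.082 with cellular blastoderm replicate 1 or 2 dropped, 0.12 and 0.18 with syncytial blastoderm replicate 1 or 2 dropped, and 0.063 and 0.064 with gastrula replicate 1 or 2 dropped. On only the 4 libraries it was 0.055. The level was 38.7 and 40 CPM in the gastrula libraries and 622 and 364 CPM in those of dorsal closure.

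The deepest proportional fall among the called genes was that of MDOA006552. At cellular blastoderm it stood at 0.361 and 0.0687 CPM, with 30 and 3 reads, against 16.2 and 28.8 CPM at syncytial blastoderm, with 359 and 1418 reads. The 3 reads allow a level of 0.0142 to 0.201 CPM (exact 95% Poisson interval, counting error only). Its log2 fold change was -6.66 ± 1.23 (SE, edgeR adjusted p = 0.026, and 0.0061 with the replicate block). The adjusted p ran from 0.064 to 0.14 with 1 of the 4 compared libraries dropped, whichever it was, and was 0.055 on only the 4. The gene stood at 1.51 and 4.04 CPM at gastrula and at 8.19 and 9.85 CPM at dorsal closure.

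**Figure D4:**
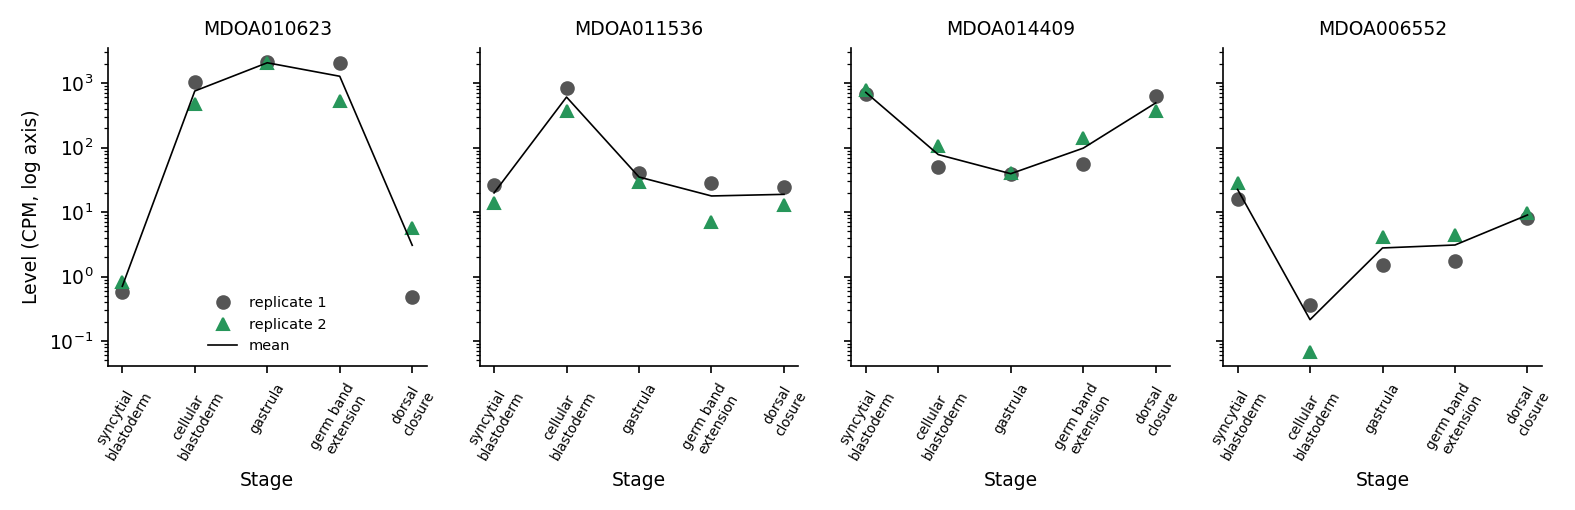
Levels in CPM on a log axis of the 4 genes given by identifier, over the 5 stages, with 1 marker per library and a line through the stage means. MDOA010623 and MDOA011536 were higher and MDOA014409 and MDOA006552 lower at cellular than at syncytial blastoderm in both replicates, and MDOA014409 stood at 622 and 364 CPM at dorsal closure.

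Among present genes, the median difference was higher in each class of higher read level at syncytial blastoderm. The 92 genes with a geometric mean of at least 1000 CPM at syncytial blastoderm had median log2 differences of 1.14 in pair 1 and 0.81 in pair 2, and 74 of them (80.4%) were higher in both pairs. From 300 to 1000 CPM the medians were 0.49 and 0.26, and from 100 to 300 CPM they were 0.12 and 0.05. In the class from 30 to 100 CPM, which held 3210 genes, they were -0.02 and -0.04, and from 10 to 30 CPM they were -0.26 and -0.11. Lower by 2-fold or more in both pairs were 2 of the 92 (2.17%), against 12.7% to 16.4% of the genes in the 4 lower classes. Higher by 2-fold or more in both pairs were 11 of the 92 (12%), against 0.312% to 1.8% in the lower classes. With the replicate block 25 of the 92 (27.2%) were called higher and 2 lower. Without it edgeR called 0, with 15 higher and 1 lower at an unadjusted p under 0.05, and DESeq2 called 8 higher and 0 lower. This contrast between level classes was not itself tested.

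Scaling changed the size of these shifts. With total counts alone the 92 genes had medians of 0.69 and 0.53, and 65 were higher in both pairs. By 2-fold or more in both pairs, 0 of the 92 were then higher and 4 lower. The class from 30 to 100 CPM then had medians of -0.48 and -0.33, and the median of all tested genes was -0.08 in place of 0.10. Under all 4 scalings the medians of the 92 genes were positive in both pairs and those of the class from 10 to 30 CPM negative. In the classes between, the sign of the median changed with the scaling in both pairs for genes from 100 to 300 CPM and in pair 2 alone for the other two.

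**Figure D5:**
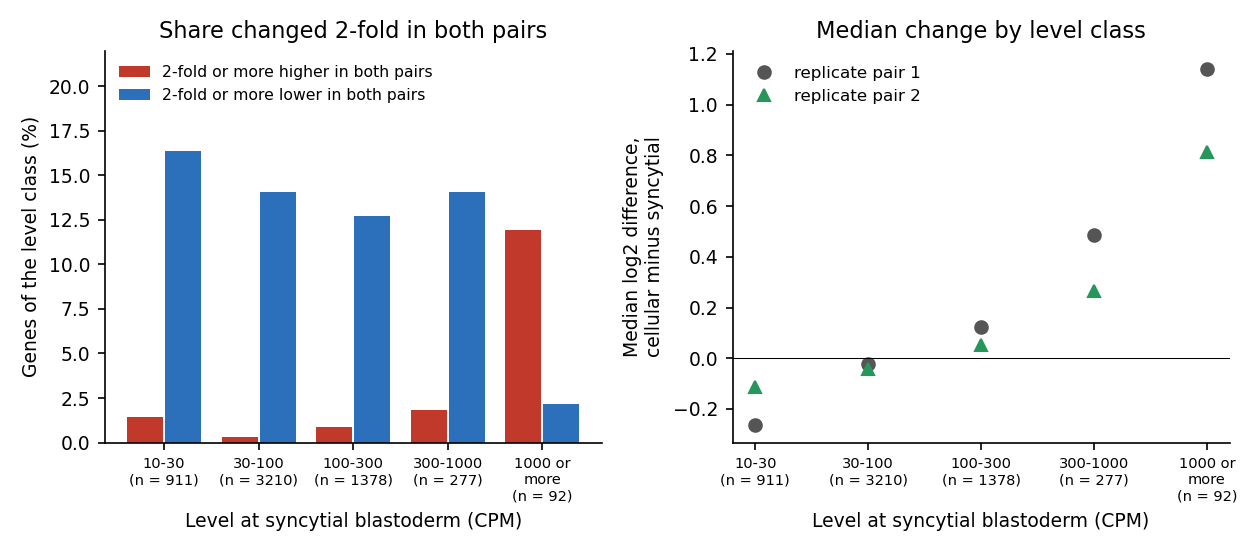
The left panel gives the percentage of genes 2-fold or more higher (left bar) or lower (right bar) at cellular blastoderm in both pairs, by read level at syncytial blastoderm, and the right panel the median log2 difference, cellular minus syncytial blastoderm, in each replicate pair (TMM scaling). The 92 genes at 1000 CPM or more have medians of 1.14 and 0.81, at the upper end of a series that starts at -0.26 and -0.11. With this scaling they hold more genes 2-fold higher than 2-fold lower, which none of the 4 lower classes does. With total counts alone they hold 0 higher and 4 lower.

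At the top of the range, genes crossed 1000 CPM upward in both pairs of libraries and 0 crossed it downward. At or above 1000 CPM in all 4 libraries were 60 genes, which held 22.4% and 26.8% of the gene reads at cellular blastoderm and 17.9% and 20.6% at syncytial blastoderm. A further 18 genes were at or above 1000 CPM in both cellular blastoderm libraries and below it in both syncytial ones, and 0 genes did the reverse. These counts used TMM scaling, with factors of 1.36 and 1.16 for the syncytial and 0.994 and 0.954 for the cellular blastoderm libraries. A larger factor lowers the CPM, and the counts were not repeated with the other scalings. All 18 were already present at syncytial blastoderm, where their medians were 524 and 810 CPM, against 1599 and 1409 CPM at cellular blastoderm. Of the 18, edgeR called 0 without the replicate block, with 5 higher at an unadjusted p under 0.05, and 6 with it, and DESeq2 called 5. At gastrula and later the 18 stayed high in part: 17 and 18 were at or above 1000 CPM in the gastrula libraries, and 8 and 9 at dorsal closure.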

How the data were processed

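Per the labels, RNA was isolated from frozen whole embryos with Tri-reagent, DNase was applied, and paired reads of 100 bp from inserts of 200 bp were sequenced on a HiSeq2000. The authors deposited a table of raw read counts over genes for each library, and STAR and HTSeq are named in the submitters' processing notes. The sources used here give no version, genome build, annotation or strand setting, so overlapping, antisense and near-identical genes may share or lose reads. The 5 rows that name no gene were left out. In the 4 libraries, 10.5% to 23.5% of reads were assigned to no gene and 5.31% to 9.46% aligned to more than 1 place. Every pair of libraries differed by more than sampling noise (lowest chi-square per degree of freedom 191).

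Counts were tested in R 4.3.3 with edgeR 4.0.16: filterByExpr by stage, TMM, and a robust quasi-likelihood model with 1 coefficient per stage on all 10 libraries (5 residual degrees of freedom). Alternatives used DESeq2 1.42.0, limma 3.58.1, other scalings and filters, a replicate block (4 residual degrees of freedom), fewer libraries and other level and fold floors. Replicate 2 minus replicate 1 differences correlated across genes at r of 0.321 to 0.608 in all 10 pairs of stages (0.456 for these 2), above the 0.1 set for pairing. The labels do not say what a number shares. Log2 differences within pairs add a prior count of 2. Only the main fit, without the block, was tried on simulated counts, with changes of set size and no replicate effect. Rises from near-silent starts and the alternative fits were not simulated.

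The groups, floors and alternatives were chosen with earlier results of these data known. The 4 identifiers are the called genes with the highest cellular blastoderm level from below 1 CPM and from at least 10 CPM, the highest syncytial blastoderm level among falls, and the deepest proportional fall. The level classes, the genes at 1000 CPM and the genes short of 10 CPM were chosen after the values were seen. Gene lists of Drosophila regulators were not counted, since 0 identifiers matched.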

Additional observations from a re-analysis of the deposited data

How the results depend on the processing

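With the replicate block, edgeR called 494 genes higher and 410 lower at cellular blastoderm, against 259 and 51 without it. The block with total counts alone gave 428 and 747, with size factors from DESeq2 484 and 404, DESeq2's own test with the block 1072 and 901, in limma-voom 534 and 682, and on only the 4 libraries 364 and 844. Without the block, DESeq2 called 567 and 447, limma-voom 234 and 105, total counts alone 226 and 100, and only the 4 libraries 118 and 37, with 8412 genes tested in place of 11286. The cause of these moves was not tested. Leaving out 1 of the 10 libraries gave 75 to 271 rises and 0 to 83 falls without the block. Leaving out 1 of the 4 compared libraries with it gave 304 to 398 rises and 43 and 121 falls without cellular blastoderm replicates 1 and 2 and 115 and 123 without syncytial ones, and a stage left with 1 library was assumed to vary like the others. The other scalings, both filters and a minimum log2 fold change of 1 kept both counts within 1.5 times. The 4 identifiers kept their direction in all 28 alternative fits and passed the threshold in 20 to 25 of them. Syncytial blastoderm replicate 1, the shallowest library, limits what can be said of starting levels below 0.135 CPM.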
